A study of Mus musculus with 4 samples.

Results

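The heat-shock proteins and chaperones described here are 9 genes given as a list: the small heat-shock proteins Hspb1 and Cryab, the HSP70 proteins Hspa1a, Hspa1b, Hspa8 and Hspa5, the cytosolic HSP90 Hsp90aa1, the HSP110 Hsph1 and the J-domain protein Dnajb1. Each symbol matched 1 row of the deposited tables, so the members are 9 of 32285 genes. They were followed as unique molecular identifiers (UMIs, 1 per captured RNA molecule) in 4 single-cell RNA-seq libraries of mouse brain. The mice were male targeted-replacement animals that carry human APOE in place of mouse Apoe, homozygous for APOE3 (APOE33) or APOE4 (APOE44). APOE4 is the main common genetic risk allele for late-onset Alzheimer's disease. The groups were APOE3 with NaCl, APOE3 with LPS, APOE4 with NaCl and APOE4 with LPS, where LPS is bacterial lipopolysaccharide given systemically at 5 mg/kg and the brains were taken 24 h later. Each group was 1 library of cells from 3 pooled mice, enriched for glia, and no group carried mouse Apoe. The age of the mice is not given in the sources used here. Sets of 4 values below give the APOE3 libraries first, NaCl before LPS, and then the APOE4 libraries in the same way.

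Heat-shock proteins bind unfolded or partly folded proteins and either hold them soluble or pass them on for refolding. Small heat-shock proteins hold clients without using ATP, HSP70 proteins fold them in cycles set off by J-domain partners and reset by HSP110, and HSP90 finishes the folding of kinases and hormone receptors. Heat, oxidants and inflammation can raise the inducible members through heat-shock factors, while unfolded protein in the endoplasmic reticulum (ER) raises Hspa5 (BiP) through the unfolded protein response. In brain, Hspb1 is known from blood vessels and reactive astrocytes, and Cryab from oligodendrocytes.

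With 1 library per group no difference between groups could be tested, and no p-value is given. Levels are CPM: UMIs of the gene scaled to 1000000 UMIs summed over all cells of 1 class in 1 library. Ratios of 2 libraries carry an exact 95% interval in parentheses that covers counting error only, not the variation between mice. A gene counted as higher or lower when its CPM differed by at least 1.5-fold, among genes with at least 10 UMIs in 1 of the 2 libraries. The share of all such genes that passed is given as the background. Log2 ratios and their medians are of CPM + 1, which pulls genes of a few CPM toward 0.

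The libraries held 15432, 16078, 14122 and 29361 barcodes, and 14404, 15060, 13071 and 18182 of them were kept. Their total UMIs were 78513245, 114378032, 73288965 and 88460913. The APOE4 LPS library stood apart: 37.5% of its barcodes held under 1000 UMIs, against 4.53% to 5.62% in the others, and doublet calling worked in the other 3 libraries only. Pairs of libraries shared 61 to 140 barcodes, at most 0.963% of the smaller one. Cells were grouped without the 9 genes and without the other chaperone lists, and groups were named from marker genes, so that a name such as astrocytes below stands for astrocyte-like cells. Clusters that took no name held 0.146, 2.90, 0.383 and 43.6% of the cells and entered no class comparison. There were 4233, 3244, 3664 and 2304 astrocytes with a median of 3334, 3753, 3698 and 3467 UMIs, and all 10 astrocyte markers were present in each library. The label says non-neuronal cells, yet 341, 350, 424 and 732 cells carried neuron markers. Several classes lay in different clusters by treatment: microglia were mainly in clusters 4 and 5 with NaCl and in 7 and 16 with LPS, oligodendrocytes in 0 and 15 against 11, and endothelial cells in 9 against 24. Astrocytes filled clusters 1 and 2 in all libraries, but cluster 3, led by Gfap, Iigp1 and Gbp2, took 89, 140, 68 and 795 astrocytes.

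Upstream sequence is shown for Hspb1, Hspa1a and Hspa1b, each of which holds a part of a heat-shock element, the site bound by heat-shock factors. Hsph1 also holds such a part and is not shown. The RefSeq tables used here had a promoter window for 6 of the 9 members (Hspb1, Hspa1a, Hspa1b, Hspa5, Hsph1 and Dnajb1). The lines give the 250 bases before the transcription start in GRCm38.p6, 5′ to 3′ on the gene's strand, with matches to GAANNTTC or TTCNNGAA in capitals. Hspb1 lies at chr5:135887669-135887918 on the plus strand, and Hspa1a and Hspa1b at chr17:34972157-34972406 and chr17:34959239-34959488 on the minus strand.
Hspb1: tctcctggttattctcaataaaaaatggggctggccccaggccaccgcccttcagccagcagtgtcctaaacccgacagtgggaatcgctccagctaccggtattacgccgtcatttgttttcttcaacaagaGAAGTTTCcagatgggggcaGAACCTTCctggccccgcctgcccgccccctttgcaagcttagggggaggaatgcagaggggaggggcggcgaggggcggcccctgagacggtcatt
Hspa1a: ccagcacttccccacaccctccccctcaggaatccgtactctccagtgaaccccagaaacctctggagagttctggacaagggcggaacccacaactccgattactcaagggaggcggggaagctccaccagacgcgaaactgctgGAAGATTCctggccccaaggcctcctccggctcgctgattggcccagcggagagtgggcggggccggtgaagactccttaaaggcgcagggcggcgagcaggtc
Hspa1b: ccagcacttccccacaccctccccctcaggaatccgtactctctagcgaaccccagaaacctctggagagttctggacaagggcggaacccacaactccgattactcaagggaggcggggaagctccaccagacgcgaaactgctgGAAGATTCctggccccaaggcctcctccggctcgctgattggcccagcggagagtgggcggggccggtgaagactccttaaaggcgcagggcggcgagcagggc
Hspb1 held 2 such matches, at bases -117 to -110 and -97 to -90, and Hspa1a and Hspa1b held 1 each at -104 to -97. The Hspa1a and Hspa1b stretches were the same at 247 of 250 bases. That short form is common: 15.1% of 32851 RefSeq promoter windows of 300 bases (250 before the start and 50 after it) held it on either strand, and it was chosen after the windows had been seen. The full heat-shock element (the short form followed, after 2 free bases, by the same 3 bases it began with) was in 0.603% of windows and, of the 6 members, was found in Hsph1, as TTCTGGAAAGTTC at chr5:149636288-149636300 on the minus strand. The ER stress element (CCAAT, 9 free bases and CCACG, in 0.119% of windows) was found in Hspa5, as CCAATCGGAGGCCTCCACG at chr2:34772025-34772043 on the plus strand, bases -65 to -47. The Hsph1 match lies after the transcription start, at bases 37 to 49 in 1 of its windows and 16 to 28 in the other. Such matches describe the sequence and do not show binding.

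**Figure D1:**
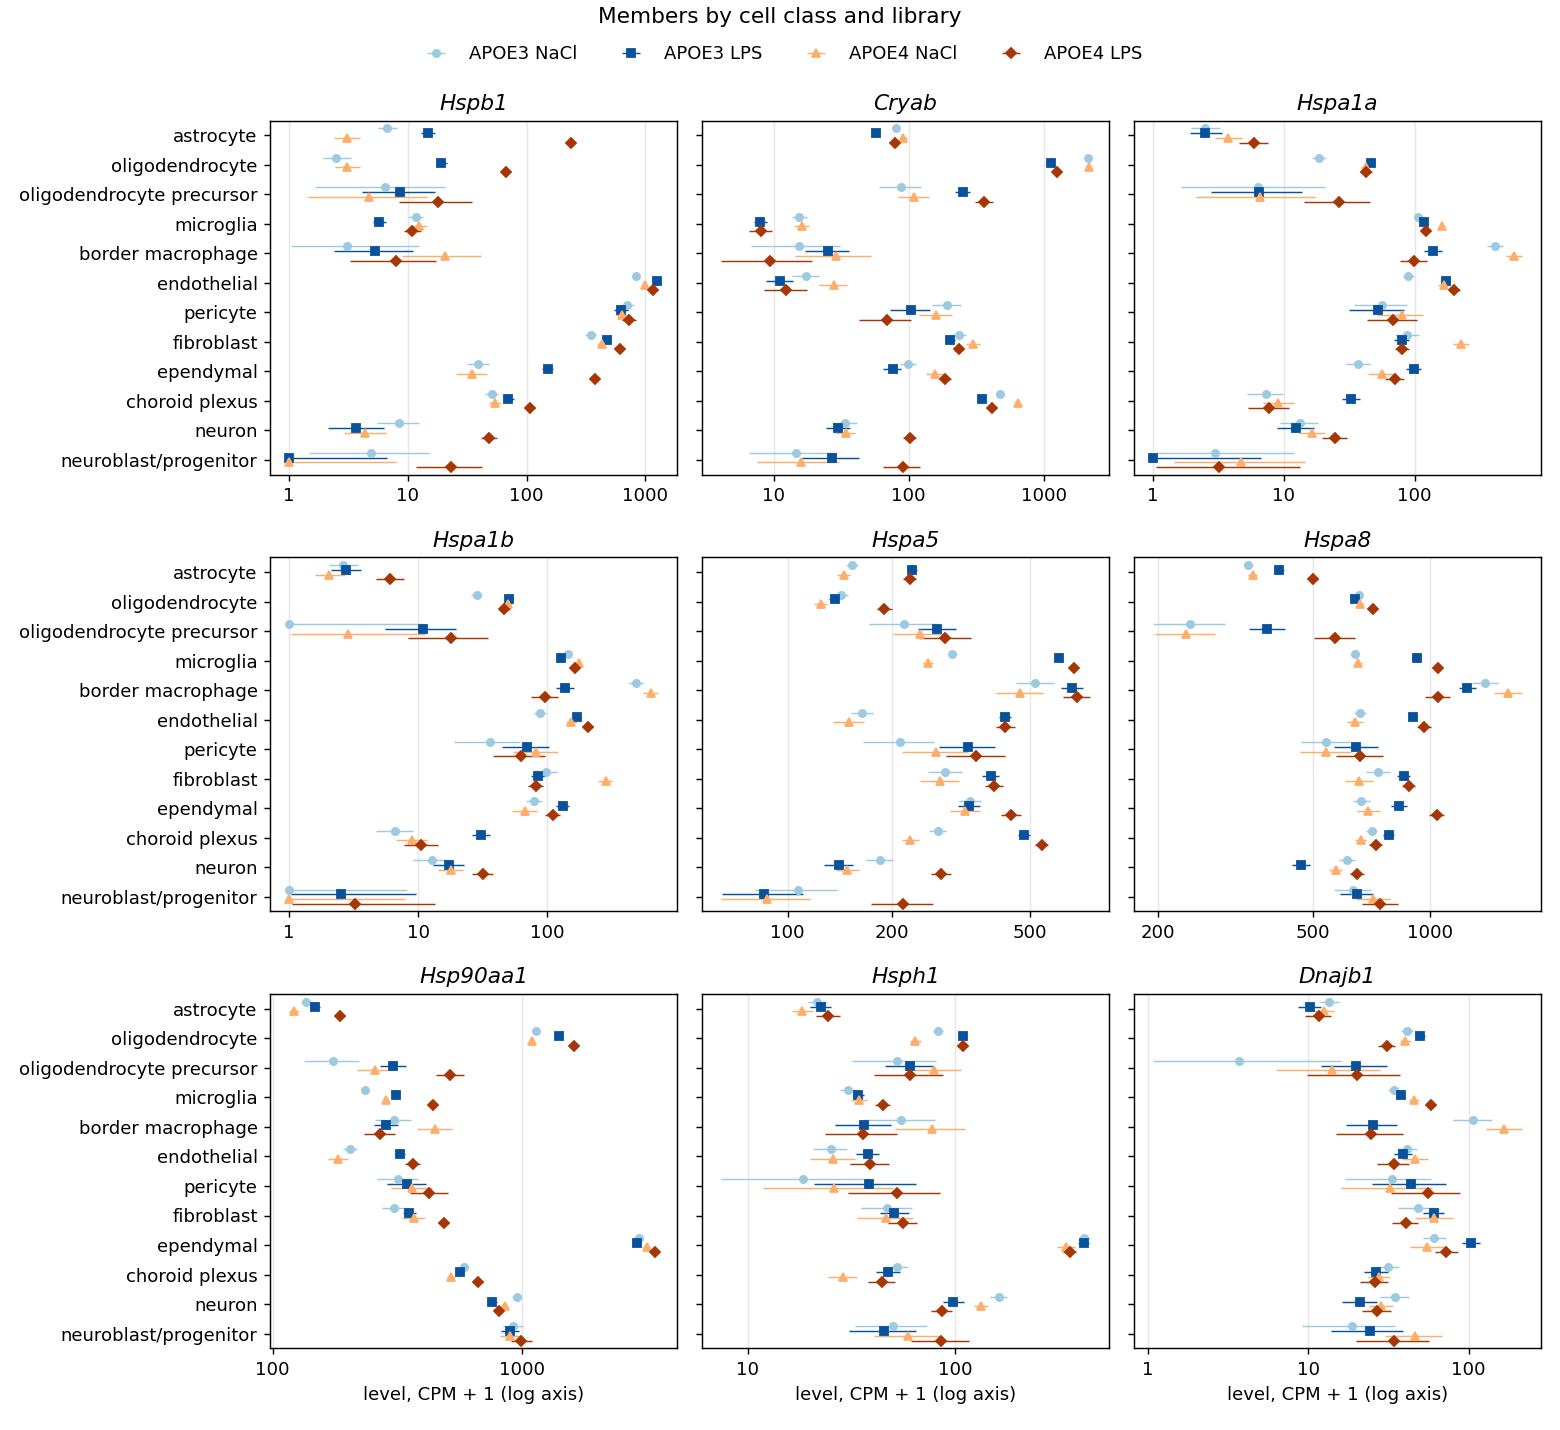
Level of each member (CPM + 1, log axis) in 12 cell classes, 1 panel per gene and 1 point per library, with 95% Poisson bars for counting error. Hspb1 was highest in endothelial cells and pericytes in all 4 libraries, while its astrocyte points run from 2.08 CPM (APOE4 NaCl) to 235 CPM (APOE4 LPS).

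In astrocytes the members did not act as a block. With LPS, 1 of the 9 was at least 1.5-fold higher in APOE3 (Hspb1; background 7.37% higher) and none was lower (background 10.6%). In APOE4, 5 were higher (Hspb1, Hspa1a, Hspa1b, Hspa5 and Hsp90aa1; background 11.2%) and none lower (background 9.51%). Of those 5, Hspa5 and Hsp90aa1 stood just past the threshold at 1.55 and 1.54-fold, and Hspa5 in APOE3 stood just under it at 1.49-fold. The APOE4 calls also depended on cluster 3. Without it Hspa1a stood at 1.23 (0.681 to 2.16) and Hsp90aa1 at 1.38 (1.27 to 1.49), both under the threshold. Hspa8 passed it at 1.56 (1.49 to 1.63), and Hspb1, Hspa1b and Hspa5 stayed past it. The median log2 ratio of the 9 was 0.06 in APOE3 and 0.62 in APOE4, beside -0.07 and -0.03 over all measured genes. Between the NaCl libraries 1 member was higher in APOE4 (Hspa1a; background 3.57%) and 2 were lower (Hspb1 and Hspa1b; background 6.35%). The Hspa1b call, between 1.64 and 1.04 CPM, does not hold on CPM + 1 (log2 ratio -0.37). Between the LPS libraries 3 were higher in APOE4 (Hspb1, Hspa1a and Hspa1b; background 8.78%) and none lower (background 4.53%). The LPS effect was larger in APOE4 by at least 1.5-fold for 3 members (Hspb1, Hspa1a and Hspa1b; background 13.9%) and larger in APOE3 for none (background 6.37%). The count for APOE3 moved to 4 when mitochondrial UMIs were limited to 10%, when clusters were split at resolution 2, or when 2 clusters that mix astrocyte markers with those of another type were kept. With those mixed clusters kept, 6 members were higher in APOE4 LPS than in APOE3 LPS.

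**Figure D2:**
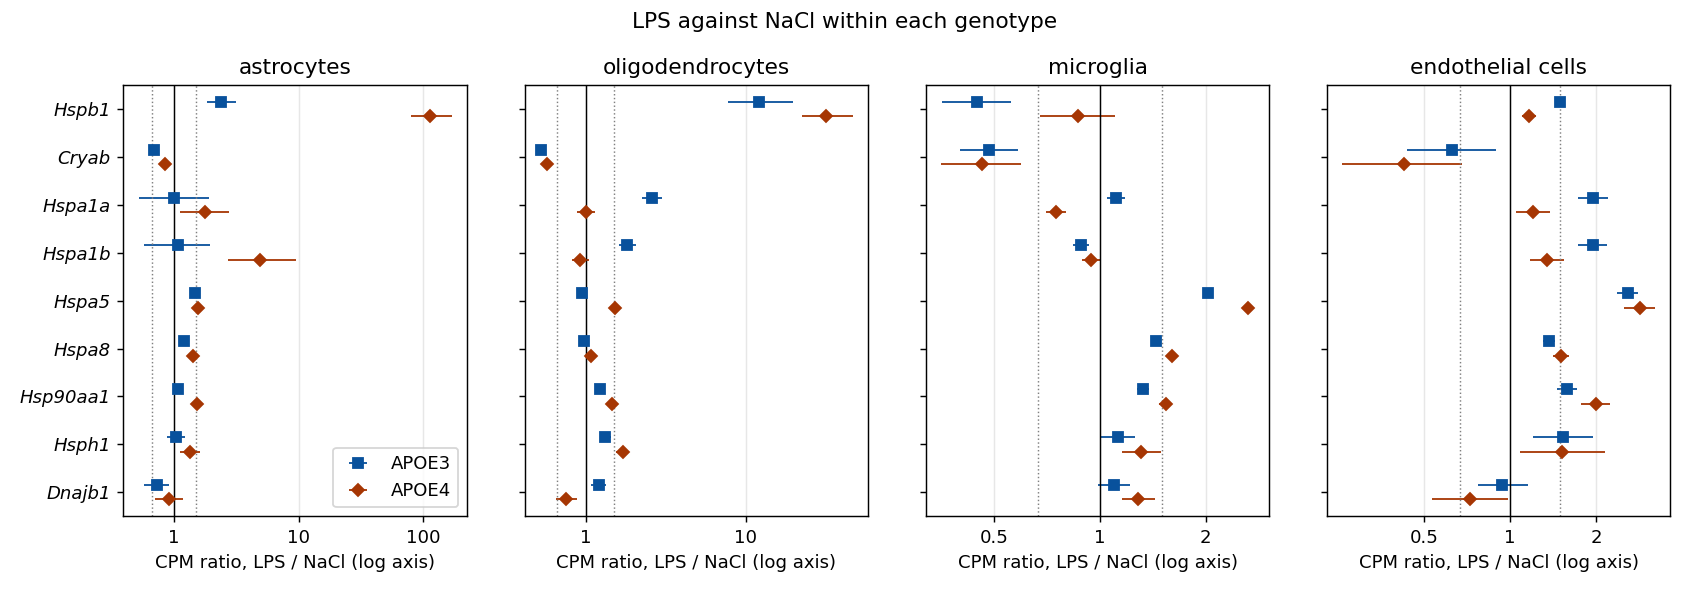
Ratio of the LPS to the NaCl library (CPM, log axis) for each member in astrocytes, oligodendrocytes, microglia and endothelial cells, APOE3 and APOE4 side by side, with exact 95% counting intervals and dotted lines at 1.5-fold either way. Hspb1 stands at 113-fold in APOE4 astrocytes, while Hspa5 in microglia and endothelial cells lies above 1.5-fold in both genotypes.

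Hspb1 (HSP25 in the mouse, ENSMUSG00000004951, chr5:135887919-135889563 in GRCm38) encodes a small heat-shock protein that also binds actin. In astrocytes it stood at 5.76, 13.8, 2.08 and 235 CPM, from 88, 181, 30 and 2116 UMIs. It was high in the APOE4 LPS library alone and low in the other 3. The LPS ratio was 2.40 (1.85 to 3.13) in APOE3 and 113 (79.0 to 168) in APOE4, a difference of 5.54 (4.91 to 6.17) on the log2 scale. After thinning each cell to 1000 UMIs, which every kept cell had, Hspb1 was found in 0.307, 1.26, 0.3002 and 11.2% of astrocytes, and in 0.969, 4.16, 0.791 and 19.9% without thinning. Microglia, a class not known for Hspb1, gave 0.749, 0.398, 0.684 and 1.20% thinned and 1.84, 3.09, 2.19 and 4.69% unthinned, at medians of 4197, 7294, 4484 and 6352 UMIs. Taken over the whole class, the astrocyte shares in both NaCl libraries were below the microglial ones, while those of both LPS libraries were above. In APOE3 NaCl, however, 53 of the 88 UMIs lay in the 89 cells of cluster 3, at 136 CPM and in 4.49% of thinned cells. Both values are above microglia, but the share rests on few cells. The other 2 astrocyte clusters gave 0.274 and 0.172% there, under the microglial share. In APOE4 NaCl the whole class held 30 UMIs, so that the APOE4 ratio rests on a NaCl level within that background.

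Most of this signal sat in 1 cluster. Cluster 3 held 34.5% of the APOE4 LPS astrocytes and 91.8% (90.6 to 93.0) of their Hspb1 UMIs, against 4.32% of astrocytes and 30.9% (24.3 to 38.2) of UMIs in APOE3 LPS. Hspb1 in cluster 3 was 136, 117, 6.28 and 636 CPM, where the APOE4 NaCl value is a single UMI. In cluster 1 it was 3.55, 11.8, 1.24 and 29.3 CPM and in cluster 2 it was 1.27, 8.23, 3.07 and 29.0 CPM. APOE4 LPS was the highest library in each of the 3 clusters, by 5.42 (4.16 to 7.21), 2.49 (1.78 to 3.49) and 3.52 (2.50 to 5.00) times APOE3 LPS in clusters 3, 1 and 2. In APOE3, the CPM of cluster 3 was not higher with LPS than with NaCl (0.859 (0.580 to 1.28)). The thinned share of its cells with Hspb1 was 10% of 140 cells with LPS and 4.49% of 89 with NaCl. Both shares rest on few cells and carry no interval, so their order is uncertain. Without cluster 3 the astrocyte LPS ratios were 4.21 (2.87 to 6.31) in APOE3 and 14.3 (9.63 to 22.0) in APOE4, and the APOE4 to APOE3 ratio with LPS was 2.94 (2.32 to 3.73) in place of 17.0 (14.6 to 19.9). Hsp90aa1, Hspa8 and Cryab did not follow Hspb1 within cluster 3. There Hsp90aa1 stood at 458, 377, 383 and 231 CPM and Hspa8 at 644, 616, 665 and 427 CPM, both lowest in APOE4 LPS. Cryab stood at 121, 132, 113 and 106 CPM, with a ratio of 0.804 (0.612 to 1.07) between the LPS libraries.

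Values that moved beside Hspb1 were as follows. In the APOE4 LPS library an unnamed cluster of 6334 low-depth barcodes (median 1466 UMIs, led by Saa3, Ccl5 and Mt2) held Hspb1 at 235 CPM, and barcodes with erythrocyte markers held 160.3 CPM. Microglia of the same library held 9.96 CPM, against 235 CPM in its astrocytes. Summed over the 10 markers of each type, endothelial markers in astrocytes were 50.8, 57.4, 55.4 and 64.7 CPM, pericyte markers 159, 165, 166 and 178 CPM and fibroblast markers 55.7, 63.7, 49.0 and 50.7 CPM. These 3 sums differed by less than 1.5-fold between libraries, with no endothelial or pericyte marker at 0. All marker sums here are over the whole astrocyte class and were not taken for cluster 3, where most Hspb1 UMIs of APOE4 LPS lay. Vascular smooth muscle markers were 32.7, 22.6, 25.4 and 43.9 CPM, highest in APOE4 LPS, with Cnn1 at 0 in APOE3 LPS and APOE4 NaCl. Neutrophil markers were 2.03, 19.3, 4.16 and 24.3 CPM, higher in both LPS libraries. Erythrocyte markers were 115, 99.2, 186 and 303 CPM and monocyte markers 24.7, 21.7, 23.8 and 40.6 CPM, both highest in APOE4 LPS. The part of these in the Hspb1 result was not tested.

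Outside astrocytes, Hspb1 was a vascular transcript. Endothelial cells held 838, 1250.3, 988 and 1149.9 CPM, pericytes (whose cluster also had the smooth muscle genes Myh11, Tpm2 and Myl9 among its leading genes) 701, 624, 639 and 726 CPM and fibroblasts 347, 474, 432 and 606 CPM. In these 3 classes no LPS ratio reached 1.5, and the highest was 1.49 (1.43 to 1.55) in APOE3 endothelial cells. Fibroblasts of APOE4 LPS were shallow, with class medians of 6514.5, 11409.5, 6176 and 2446.5 UMIs. The part of this in the fibroblast level of any member was not tested. Ependymal cells, which line the ventricles, held 38.2, 149, 34.0 and 379 CPM and were higher with LPS by 3.91 (3.08 to 5.00) in APOE3 and 11.2 (8.17 to 15.6) in APOE4. Oligodendrocytes held 1.52, 18.2, 2.10 and 66.3 CPM, higher by 12 (7.72 to 19.7) and 31.6 (22.3 to 46.4). In both of these classes APOE4 LPS was also above APOE3 LPS, by 2.53 (2.22 to 2.89) and 3.65 (3.18 to 4.19). That excess of Hspb1 was not limited to them and astrocytes. Between the LPS libraries, 7 of 10 measured classes passed 1.5-fold toward APOE4 and 0 toward APOE3. Microglia, used above as the background class, were among the 7 (4.77 CPM in APOE3 LPS, 9.96 CPM in APOE4 LPS). The lowest APOE4 to APOE3 ratio with LPS was 0.92, in endothelial cells. The thinned share of oligodendrocytes with Hspb1 was 0.190, 1.11, 0.142 and 5.87%, which passed the microglial share in both LPS libraries and not in the NaCl ones. Ependymal cells of APOE4 LPS were shallow, with class medians of 7310.5, 8132, 6961 and 1976 UMIs, and carried more markers of other types. Their summed endothelial markers were 80.8, 66.8, 83.3 and 276 CPM, fibroblast markers 25.8, 20.4, 22.6 and 184 CPM and microglial markers 191, 268, 324 and 1109 CPM, highest in APOE4 LPS, and the part of these in its Hspb1 level was not tested. Microglia went the other way in APOE3, at 10.7, 4.77, 11.5 and 9.96 CPM, 2.24 (1.79 to 2.81)-fold lower with LPS.

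Cryab (αB-crystallin, ENSMUSG00000032060, chr9:50751325-50756636) is the small heat-shock protein of lens and myelinating cells. Oligodendrocytes held 2129, 1129, 2184 and 1260.5 CPM, high in both NaCl libraries and lower in both LPS libraries by 1.89 (1.85 to 1.92) and 1.73 (1.70 to 1.77)-fold. The 2 genotypes were within 1.12-fold of each other under either treatment. After thinning, 82.5, 62.2, 82.9 and 63.7% of oligodendrocytes had a Cryab UMI, and 96.1, 93.7, 96.9 and 91.6% before it, while microglia had 1.53, 1.05, 1.30 and 1.08% and 6.34, 5.20, 6.88 and 4.75%. As the oligodendrocytes of the 2 treatments lay in different clusters, the difference is also one between clusters. The 10 oligodendrocyte markers of the class summed to 39835, 23838, 41914 and 23484 CPM, likewise lower in both LPS libraries, and their part in the Cryab result was not tested. Oligodendrocyte precursors (OPC) went the other way: 86.3, 249.8, 108 and 361 CPM, higher with LPS by 2.89 (1.99 to 4.33) and 3.34 (2.47 to 4.59). Choroid plexus cells held 471, 347, 649 and 416 CPM and pericytes 192, 103, 159.8 and 67.8 CPM, with the lower values under LPS in each genotype. Another pericyte cluster, set aside because it also carried endothelial markers, held 45.3, 20.4, 34.1 and 74.8 CPM. Its Cryab was lower with LPS in APOE3 and higher in APOE4. In astrocytes Cryab was 80.0, 56.1, 90.6 and 77.8 CPM, and its LPS ratios of 0.702 (0.639 to 0.769) and 0.859 (0.782 to 0.942) stayed inside 1.5-fold. With the mixed clusters kept its APOE4 log2 ratio turned from -0.22 to 0.56, and 1 of those clusters carried oligodendrocyte markers. So the 2 small heat-shock proteins parted in oligodendrocytes, where Hspb1 was higher and Cryab lower with LPS.

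The inducible HSP70 genes Hspa1a (ENSMUSG00000091971, chr17:34969190-34972156) and Hspa1b (ENSMUSG00000090877, chr17:34956436-34959238) encode nearly the same protein from neighbouring genes and are the classic targets of heat-shock factor 1. Of the 90-base words of each transcript, 49.3% of those of Hspa1a and 52.3% of those of Hspa1b occur in the other, but none of the 411 words in the last 500 bases, where 3′ reads fall. Border macrophages, the macrophages of meninges and perivascular spaces, held the highest levels of the compared classes in the NaCl libraries: Hspa1a stood at 407, 136, 574 and 97.4 CPM and Hspa1b at 486, 136, 630.4 and 94.6 CPM. Both were high in the NaCl libraries and low in the LPS libraries, Hspa1a by 2.99 (2.41 to 3.70) and 5.90 (4.47 to 7.85)-fold and Hspa1b by 3.56 (2.90 to 4.39) and 6.66 (5.06 to 8.88)-fold, in APOE3 and APOE4. Their J-domain partner Dnajb1 followed there, at 105, 24.2, 166 and 23.6 CPM. In all, 4 of 8 measured members were lower with LPS in APOE3 border macrophages (background 21.5%) and 7 of 8 in APOE4 (background 27.1%), with 1 (background 18.2%) and 0 (background 20.8%) higher. The class held 136, 187, 99 and 127 cells in 1 cluster. Immediate-early genes, which tissue dissociation also induces, were lower there too: 9 of 16 in APOE3 and 13 of 16 in APOE4 (against the same backgrounds), with medians of -0.74 and -1.01 on the log2 scale. Microglial markers in the class summed to 4463, 2338, 4264 and 1878 CPM and monocyte markers to 624, 2012, 557 and 1795 CPM, the first lower and the second higher in both LPS libraries. The part of these in the result was not tested.

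Endothelial cells differed: Hspa1a was 88.6, 173, 166 and 199.7 CPM and Hspa1b 87.0, 169, 153 and 205 CPM, lowest in APOE3 NaCl and closer together in the other 3 libraries. The LPS ratio of Hspa1a was 1.95 (1.74 to 2.20) in APOE3 and 1.20 (1.05 to 1.38) in APOE4, and the NaCl libraries differed by 1.88 (1.63 to 2.16). Between the NaCl libraries some immediate-early genes went the same way there. Of 16, 6 were higher in APOE4 NaCl than in APOE3 NaCl (background 4.59%) and none lower (background 7.56%). In oligodendrocytes both HSP70 genes were again lowest in APOE3 NaCl. Hspa1a stood at 17.5, 45.4, 41.2 and 41.4 CPM and Hspa1b at 27.4, 49.7, 49.0 and 45.4 CPM. Here the immediate-early genes did not share the difference between the NaCl libraries. None was higher in APOE4 NaCl than in APOE3 NaCl (background 5.36%) and 4 of 16 were lower (background 5.5%). With LPS, 13 of 16 were higher in APOE3 oligodendrocytes (background 14.1%) and 12 of 16 in APOE4 ones (background 16.1%), and their part in the Hspa1a and Hspa1b levels was not tested. Choroid plexus cells were high in APOE3 LPS alone, with Hspa1a at 6.27, 31.8, 8.11 and 6.69 CPM and Hspa1b at 5.66, 29.9, 7.93 and 9.63 CPM. Fibroblasts were high in APOE4 NaCl alone, at 86.6, 78.6, 224 and 79.1 and 96.8, 83.9, 281 and 80.1 CPM. Microglia were highest for both genes in APOE4 NaCl, at 105, 116, 160.5 and 120.3 and 144, 127, 174 and 164 CPM. The ratio between the NaCl libraries there was 1.53 (1.44 to 1.64) for Hspa1a and 1.20 (1.14 to 1.28) for Hspa1b. No one library was thus the highest across classes. Between the NaCl libraries, however, Hspa1a was higher in APOE4 in each of the 10 measured classes. The lowest ratio was 1.27 (neurons), and 6 classes passed 1.5-fold. Hspa1b was at least 1.5-fold higher in 4 of 10 classes and lower in 1 (astrocytes). The share of all genes that far higher was 3.57% in astrocytes, 4.59% in endothelial cells and 5.36% in oligodendrocytes.

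In astrocytes Hspa1a and Hspa1b were close to absent. Hspa1a stood at 1.505, 1.53, 2.77 and 4.89 CPM from 23, 20, 40 and 44 UMIs, and Hspa1b at 1.64, 1.75, 1.04 and 5.11 CPM from 25, 23, 15 and 46 UMIs. Neuroblasts, with 1, 0, 2 and 1 UMIs of Hspa1a, were at 1.962, 0, 3.75 and 2.23 CPM. The astrocyte ratios in APOE4, 1.76 (1.12 to 2.78) for Hspa1a and 4.92 (2.70 to 9.49) for Hspa1b, compare levels of this size. With called doublets kept in all libraries, Hspa1a was no longer higher in APOE4 LPS than in APOE3 LPS (log2 ratio -0.11 in place of 1.22).

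Hspa8 (HSC70, ENSMUSG00000015656, chr9:40800984-40810087) is the constitutive cytosolic HSP70. It was among the steadier members, at 340.1, 409, 349 and 501 CPM in astrocytes, 641, 925, 654 and 1051 CPM in microglia and 659.8, 904, 641 and 966 CPM in endothelial cells. LPS libraries were the higher ones in each of these classes, by 1.20 (1.16 to 1.25) and 1.43 (1.38 to 1.49) in astrocytes and 1.44 (1.41 to 1.48) and 1.61 (1.56 to 1.65) in microglia. Oligodendrocytes, at 658, 641, 662 and 714 CPM, differed by 1.11 (1.08 to 1.15) between the LPS libraries. Border macrophages held 1385, 1249, 1590.2 and 1046 CPM, lower with LPS by 1.52 (1.36 to 1.70)-fold in APOE4.

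Hspa5 (BiP, ENSMUSG00000026864, chr2:34771970-34777547) is the HSP70 of the ER and a sensor of unfolded protein there. It was higher with LPS in both genotypes in microglia, endothelial cells and choroid plexus. Microglia held 297, 604, 253 and 668 CPM, with LPS ratios of 2.03 (1.97 to 2.10) and 2.64 (2.53 to 2.75). Endothelial cells held 163, 421, 149 and 423 CPM, with ratios of 2.59 (2.38 to 2.82) and 2.84 (2.52 to 3.22). Choroid plexus held 269.8, 479.6, 225 and 539 CPM, with ratios of 1.78 (1.66 to 1.90) and 2.39 (2.23 to 2.57). In these 3 classes the 2 LPS libraries were close to each other and both above the NaCl ones. As microglia and endothelial cells lay in different clusters by treatment, their differences are also ones between clusters. APOE3 microglia held 530 (NaCl) and 561 CPM (LPS) in cluster 7 and 769 and 640 CPM in cluster 16. In clusters 4 and 5, with few LPS cells, they held 243 and 685 and 293 and 809 CPM. APOE3 endothelial cells of cluster 24 held 439 and 422 CPM. In APOE4 microglia LPS was higher in each cluster. Astrocytes held 153, 227, 144 and 224 CPM, with smaller ratios of 1.49 (1.41 to 1.57) and 1.55 (1.46 to 1.65). Oligodendrocytes held 142, 136, 123 and 189 CPM, higher in APOE4 LPS alone, and the LPS effects differed by 0.68 (0.55 to 0.81) on the log2 scale.

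Hsp90aa1 (ENSMUSG00000021270, chr12:110690605-110702728) is the inducible cytosolic HSP90, and Hsph1 (HSP105, ENSMUSG00000029657, chr5:149614287-149636376) resets HSP70 after each cycle. Both were highest in ependymal cells. Hsp90aa1 stood there at 2926, 2885, 3139 and 3408 CPM and Hsph1 at 419, 416, 342 and 356 CPM, with every LPS ratio between 0.986 and 1.09. In oligodendrocytes Hsp90aa1 was 1135, 1397, 1092 and 1599.9 CPM and Hsph1 81.5, 108, 63.1 and 108 CPM, the LPS libraries being higher for both genes. In endothelial cells Hsp90aa1 was 203, 323, 182 and 363 CPM, higher with LPS by 1.59 (1.47 to 1.72) and 1.997 (1.78 to 2.25), and Hsph1 was 24.1, 36.9, 24.8 and 37.8 CPM, higher by 1.53 (1.21 to 1.95) and 1.52 (1.08 to 2.16). Astrocytes held 135, 147, 121 and 185 CPM of Hsp90aa1 and 20.6, 21.4, 17.3 and 23.3 CPM of Hsph1. Neurons held 161, 97.0, 132 and 85.0 CPM of Hsph1, lower with LPS by 1.66 (1.43 to 1.94) and 1.56 (1.35 to 1.80)-fold. Of the 732 neurons of APOE4 LPS, however, 545 lay in a cluster of shallow cells found almost only in that library. Its part in the APOE4 ratio was not tested.

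Dnajb1 (HSP40, ENSMUSG00000005483, chr8:83608193-83612653) starts the HSP70 cycle on heat-damaged clients. Astrocytes held 12.5, 9.15, 11.5 and 10.6 CPM, and neither LPS ratio passed 1.5-fold. Microglia held 33.4, 36.6, 44.6 and 57.4 CPM, highest in APOE4 LPS, by 1.57 (1.43 to 1.72) over APOE3 LPS. Oligodendrocytes held 40.2, 48.7, 39.3 and 29.8 CPM, lowest in APOE4 LPS, by 1.63 (1.42 to 1.88)-fold against APOE3 LPS. Apart from border macrophages, 5 further ratios passed 1.5-fold with LPS. In APOE3 these were ependymal cells (1.71 (1.38 to 2.12)) and OPC (6.93 (1.09 to 289.8), over 1 UMI with NaCl) higher and neurons (1.68 (1.20 to 2.37)-fold) lower. In APOE4 they were pericytes higher (1.75 (0.757 to 4.28)) and fibroblasts lower (1.53 (1.08 to 2.13)-fold). That fibroblast ratio compares classes with medians of 6176 UMIs (NaCl) and 2446.5 UMIs (LPS), and the part of this was not tested.

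Counts over the 9 members in other large classes were as follows. Endothelial cells had 5 higher and 1 lower with LPS in APOE3 (backgrounds 15% and 18.7%) and 4 higher and 1 lower in APOE4 (backgrounds 19.7% and 21.5%). The one lower gene was Cryab in both genotypes. Microglia had 1 higher and 2 lower in APOE3 (backgrounds 11.5% and 22.3%) and 3 higher and 1 lower in APOE4 (backgrounds 14.1% and 23.9%). Oligodendrocytes had 3 higher and 1 lower in each genotype (backgrounds 14.1% and 15.2% in APOE3, 16.1% and 14.7% in APOE4). The higher ones there were Hspb1, Hspa1a and Hspa1b in APOE3 and Hspb1, Hspa5 and Hsph1 in APOE4.

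Other genes of the chaperone system gave a wider view of astrocytes. Of 7 further small heat-shock proteins 4 were measured, and with LPS 1 was higher in APOE3 and 3 in APOE4, with medians of 0.16 and 0.78 on the log2 scale. Among them Hspb6, a small heat-shock protein of muscle and glia, stood at 3.80, 6.87, 3.74 and 13.7 CPM, and Hspb8, which works with Bag3 in clearing aggregates, at 14.9, 20.1, 14.3 and 29.0 CPM. Both were highest in APOE4 LPS, with LPS ratios there of 3.65 (2.63 to 5.13) and 2.03 (1.69 to 2.45). The share of all genes higher in these comparisons was 7.37% and 11.2%, against which this and the next counts are to be read. Of 17 co-chaperones 1 was higher in APOE3 and 2 in APOE4, close to that share. Fkbp5, an immunophilin of the glucocorticoid receptor complex, was higher in both, by 24.3 (19.95 to 30) and 34.1 (27.7 to 42.5). Bag3, the HSP70 nucleotide exchange factor that pairs with Hspb8, was at 23.8, 32.6, 20.4 and 36.1 CPM and passed in APOE4, by 1.77 (1.51 to 2.08). In the other lists 1 member each passed in APOE4: Hsp90ab1 of 2 HSP90 genes (1.53 (1.46 to 1.60)), Dnajb5 of 9 J-domain genes (1.55 (1.19 to 2.02)) and Sdf2l1 of 15 ER chaperones (2.13 (1.57 to 2.90)), the last also in APOE3 (1.74 (1.29 to 2.36)). In the lists of 9 and 15 genes, 1 gene is near the background share. None of the 10 chaperonin genes, of the measured HSP70 and HSP110 genes (8 in APOE3, 7 in APOE4), of 7 measured regulators of the unfolded protein response or of 2 measured heat-shock factors passed in either genotype or direction. Medians of the lists other than the small heat-shock proteins and immediate-early genes lay between -0.35 and 0.26.

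Immediate-early genes, which tissue dissociation also induces, were higher in APOE4 LPS astrocytes in 9 of 16 (background 11.2%) and lower in 1 (background 9.51%). Their median was 0.70. In APOE3, 2 were higher (background 7.37%) and 1 lower (background 10.6%), with a median of 0.12. They included Ier3 (6.65-fold), Zfp36 (3.83-fold) and Junb (3.01-fold) in APOE4, and Klf4 (3.00-fold) and Zfp36 (2.65-fold) higher and Jun (0.651-fold) lower in APOE3. They moved with Hspb1 in APOE4, and their part in it was not tested.

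In microglia and endothelial cells the ER chaperones moved with Hspa5. Of 15, 11 were higher with LPS in APOE3 microglia (background 11.5%) and 12 in APOE4 microglia (background 14.1%), with medians of 0.77 and 0.97 beside -0.15 and -0.15 over all measured genes. In endothelial cells 9 and 6 were higher (backgrounds 15% and 19.7%), with medians of 0.64 and 0.54 beside -0.08 and -0.08. None was lower in either class (backgrounds 22.3% and 23.9% in microglia, 18.7% and 21.5% in endothelial cells). Sdf2l1, a BiP cofactor, stood at 5.80, 35.1, 6.62 and 48.8 CPM in endothelial cells, Manf, an ER stress protein that is also secreted, at 109, 249, 112 and 250.3 CPM, and Hsp90b1, the HSP90 of the ER, at 318, 536, 287 and 543 CPM (these 3 were picked after their values were seen). Each was higher in both LPS libraries than in both NaCl libraries. Of the 8 unfolded protein response regulators, 4 were higher and 1 lower in APOE3 endothelial cells, and 5 and 2 in APOE4, against the same endothelial backgrounds. In border macrophages 11 of 15 ER chaperones were higher in each genotype (backgrounds 18.2% and 20.8%), opposite to Hspa1a, Hspa1b and Dnajb1 in the same cells. In oligodendrocytes 0 were higher and 2 lower in APOE3 (backgrounds 14.1% and 15.2%), and 1 higher and 0 lower in APOE4 (backgrounds 16.1% and 14.7%).

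**Figure D3:**
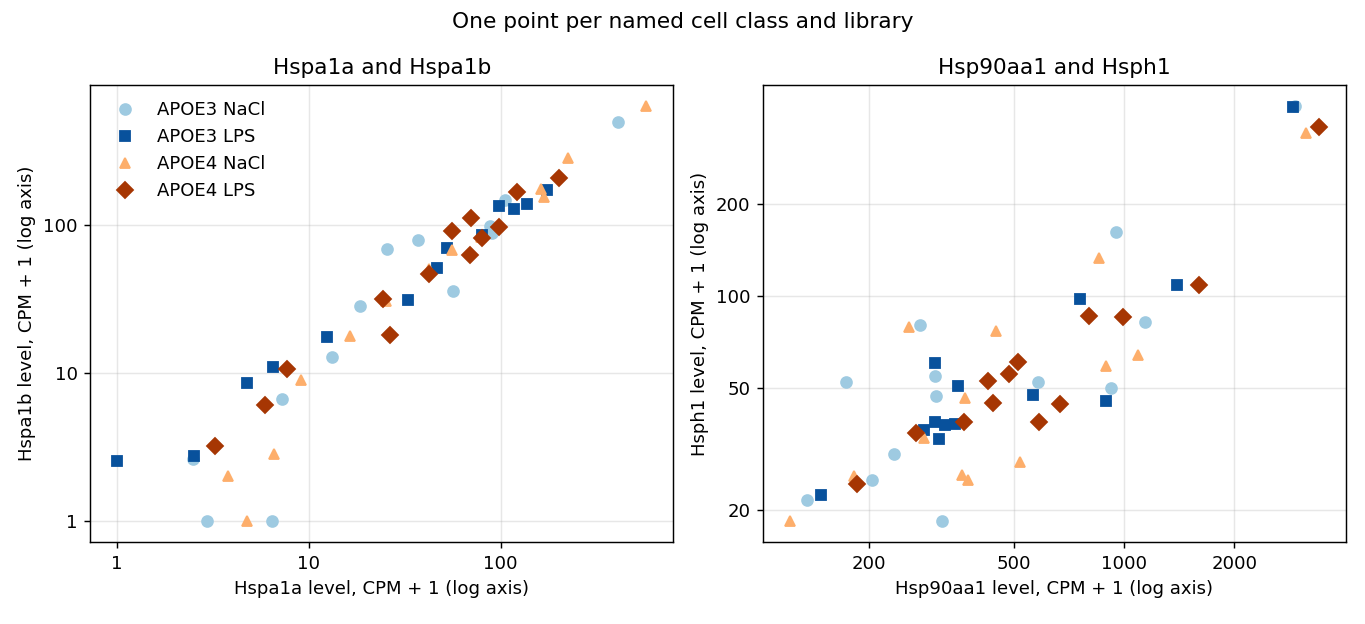
Levels (log2 of CPM + 1) of Hspa1a against Hspa1b and of Hsp90aa1 against Hsph1, 1 point per class and library of at least 50 cells (52 points of 14 classes, coloured by library). Hspa1a and Hspa1b lie along a line (r = 0.96), and Hsp90aa1 and Hsph1 more loosely (r = 0.85).

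Across 52 sums of 1 class in 1 library, which share 4 libraries and differ in depth, the profiles most like each member were described by Pearson's r of log2 (CPM + 1) over 11383 genes. Hspb1 was most like Cavin1 (0.89), Osmr (0.87), Uaca (0.86), Foxc1 (0.86) and Bvht (0.86). Hspa1a was most like Hspa1b (0.96), then Klf4 (0.88), Fosb (0.84), Itm2b (0.84) and Pla2g4a (0.81), so 2 of its 5 nearest genes were immediate-early genes. Hspb1 and Cryab had r = 0.16. Within cells the HSP70 pair was also found together: with 1000 UMIs per cell, 2.68, 3.09, 3.97 and 3.85% of microglia held both, where the product of the single shares was 0.406, 0.687, 0.711 and 1.02%. Hspb1 and Cryab in oligodendrocytes were found together in 0.152, 0.705, 0.107 and 2.80%, near the product of 0.157, 0.693, 0.118 and 3.74%.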

How the data were processed

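The authors deposited whole-number UMI counts per gene and barcode, which Cell Ranger made (version 7.0.1, per the file headers, or 7.0 with mm10, per the submitters' processing notes) from 10x Genomics 3′ libraries. Groups were taken from the sample titles, with 1 library each. A barcode was kept from 500 genes and 1000 UMIs upward, unless mitochondrial UMIs passed 20%. Scrublet in scanpy 1.11.5 called 1404, 1268 and 1069 doublets, which were removed, and 0 of 18182 in APOE4 LPS, where it did not work. Cells were scaled to 10000, log-transformed and clustered on 2000 variable genes (30 components, 15 neighbours, Leiden resolution 1, no integration), with 105 chaperone and immediate-early genes left out. A cluster took a type's name from at least 3 markers, each 2-fold above other clusters and in 25% of its cells. Clusters that mixed markers of 2 abundant types were set aside by a rule added after seeing the data. Counts were summed per class and library, and ratios carry exact 95% Clopper-Pearson intervals, differences of 2 effects approximate ones. The intervals were checked on simulated data. Sequences are from RefSeq (GRCm38.p6).

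The members and lists were chosen with earlier results of these data known. All 9 members are named. Of each other list, the up to 3 genes of largest log2 ratio in astrocytes of either LPS comparison were named if at least 1.5-fold apart with at least 20 UMIs, and so were the 5 genes most like Hspb1 and Hspa1a. For the ratios 12 alternatives were tried, and for the shares of cells 1.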

Additional observations from a re-analysis of the deposited data

Results flagged for a closer look

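In 5 cases a member was higher with LPS in 1 genotype and lower in the other, beyond its counting interval in each. Every group is 1 library, so none of these differences was tested. In microglia the log2 LPS effect of Hspa1a in APOE4 minus that in APOE3 was -0.571, with levels of 105 (NaCl) and 116 CPM (LPS) in APOE3 and 160.5 and 120.3 CPM in APOE4. In neurons the difference was 5.17 for Hspb1, 1.30 for Hspa5 and 0.572 for Hspa8. Hspb1 stood there at 7.41, 2.67, 3.41 and 47.2 CPM, Hspa5 at 184, 140 and 148 CPM before 276 CPM in APOE4 LPS, and Hspa8 at 611, 466, 572 and 649 CPM. Of the 732 neurons of APOE4 LPS, 545 lay in a cluster of shallow cells (median 1678 UMIs) that held at most 10 cells of any other library, and its part in these values was not tested. In oligodendrocytes the difference for Dnajb1 was -0.672, with levels of 40.2, 48.7, 39.3 and 29.8 CPM.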

How the results depend on the processing

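Among the log2 values of the 9 members under 12 alternatives (11 outside astrocytes, since leaving out cluster 3 concerns astrocytes alone), 472 of 540 in astrocytes, 458 of 495 in endothelial cells, 394 of 495 in microglia and 466 of 495 in oligodendrocytes kept their direction and moved by less than their counting interval. Hspb1 in APOE4 astrocytes ranged from 3.31 (without cluster 3) to 6.29 on the log2 scale. Counts of members past 1.5-fold in astrocytes moved as follows, and the cause was not tested where the alternative does not itself give it. With LPS in APOE3 (1 higher, 0 lower), 2 were higher with doublets kept, with median-of-ratios size factors or with the mean over cells of CPM, 4 with a mitochondrial limit of 10%, Leiden resolution 2 or mixed clusters kept, and 1 was lower with doublets kept or the mean over cells. With LPS in APOE4 (5 higher), 3 were higher with doublets kept or from 50 UMIs and 2 with a pseudocount of 10 CPM. Without cluster 3 the higher ones were Hspb1, Hspa1b, Hspa5 and Hspa8. Between NaCl libraries (1 higher in APOE4, 2 lower), 0 were higher with doublets kept, the pseudocount of 10 CPM or from 50 UMIs, 1 was lower with doublets kept or from 50 UMIs, and 0 were lower without cluster 3 or with the pseudocount of 10 CPM. Between LPS libraries (3 higher in APOE4), 6 were higher with mixed clusters kept and 1 with the pseudocount of 10 CPM or from 50 UMIs. For the difference of the LPS effects (3 higher), 1 was higher with doublets kept, the pseudocount of 10 CPM or from 50 UMIs, 5 with the mitochondrial limit of 10% and 6 with mixed clusters kept. With doublets kept, Hspa1b turned to 0.076 between NaCl libraries (from -0.37), and Hspa1a to -0.11 between LPS libraries (from 1.22) and to -0.36 in the difference of effects (from 0.79). At Leiden resolution 2, Cryab with LPS in APOE4 endothelial cells turned to 1.56 (from -1.16). The alternative with mixed clusters kept was chosen after seeing the data. Thinning to 2000 UMIs in place of 1000 moved 29 of 36 shares, since more UMIs per cell find more cells. No paired analysis was possible because the groups share fewer than 2 replicate numbers. Depth limits Hspa1a and Hspa1b in astrocytes, which rest on 15 to 46 UMIs per library.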
